A study of Mus musculus with 4 samples.

Results

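Epcam, 4 keratins of simple epithelia (Krt7, Krt8, Krt18 and Krt19), 3 claudins (Cldn3, Cldn4 and Cldn7), the splicing regulator gene Esrp1 and the gut transcription factor gene Cdx2 were followed in MC38 tumours treated with vanoxerine or saline. These 10 genes, of 54115 genes quantified, were taken by name as markers of epithelial and intestinal identity. MC38 is a mouse colon adenocarcinoma cell line, and the tumours grew from cells injected into mice. The saline group received 10 daily intraperitoneal injections of saline, and the vanoxerine group 10 daily intraperitoneal injections of vanoxerine, a dopamine transporter inhibitor, at 25 mg/kg. RNA of the snap-frozen whole tumour was sequenced, with 2 libraries per group. The labels name neither the injection site nor the strain, age or sex of the mice, and do not say if a group's libraries stem from different mice. P-values below therefore measure the spread between libraries, which may be technical.

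Simple epithelia such as the lining of the gut build their intermediate filaments from pairs of a type II keratin (Krt7, Krt8) and a type I keratin (Krt18, Krt19). Claudins seal the tight junctions between neighbouring cells, Epcam is a surface adhesion glycoprotein that binds Cldn7, and Esrp1 directs the splicing of transcripts toward their epithelial forms. Cdx2 specifies intestinal identity, and carcinoma cells that take on a mesenchymal state lose many of these proteins while filling with vimentin.

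Between 67032059 and 75429951 estimated reads per library fell in annotated genes. Between the libraries of a group the median absolute log2 ratio was 0.098 (saline) and 0.046 (vanoxerine), among genes averaging 10 CPM or more. CPM is the read count scaled to library size and TMM factor. The median log2 fold change of the 18758 genes tested was -0.0096. It was -0.14 with upper-quartile factors, 0.13 with log2(TPM + 1) and 0.21 with log2(TPM + 0.1), where TPM is a level that takes transcript length into account. Of the genes called by edgeR, 56.9% were higher in vanoxerine, against 39.0% with upper-quartile factors and 82.5% with log2(TPM + 1).

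The RNA of these 10 genes was scarce in all 4 tumours. In total, 9 of the 10 genes had at least 1 read and 8 passed the low-count filter and were tested. Epcam led with a mean of 1.86 TPM over the 4 libraries, a level above that of 35.4% of tested genes. Krt18 followed at 1.15 TPM, Krt8 at 0.706, Krt19 at 0.637 and Krt7 at 0.506 TPM. Then came Cldn4 at 0.484, Esrp1 at 0.399, Cldn7 at 0.292 and Cldn3 at 0.106 TPM, against a median of 5.67 TPM for tested genes. No neighbours in this order were separated, because the ranges over the 4 libraries overlapped for each pair down to Cldn3. Cdx2 had no read in any library, which allows up to 0.0392 and 0.0421 CPM in the saline libraries and 0.0433 and 0.0455 CPM in the vanoxerine libraries (3 reads per library, counting error only). At this depth the gut identity in the tumour's label was therefore not visible through Cdx2. Vim, the vimentin gene of mesenchymal cells, stood at 1407 and 1380 TPM in saline and 2143 and 2136 TPM in vanoxerine. That was 334 and 325 times the summed TPM of the 10 genes in saline, and 269 and 264 times in vanoxerine.

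**Figure D1:**
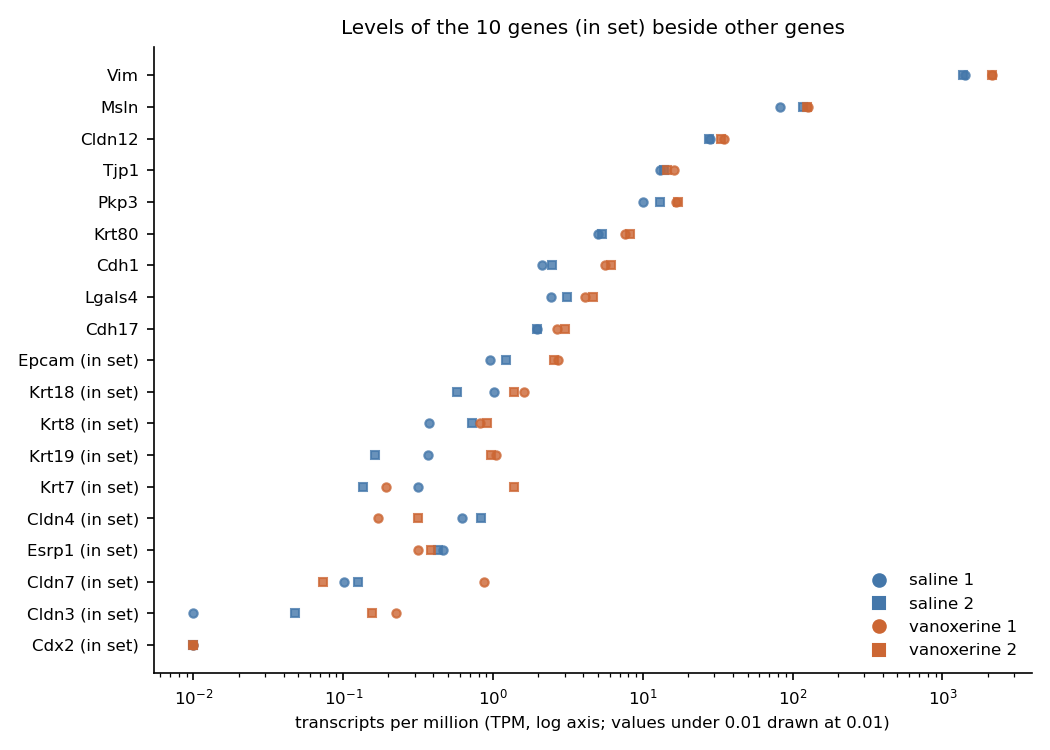
TPM on a log axis for the 10 genes and, above them, genes for comparison, ordered by mean, with a point per library, colour for treatment and values of 0 drawn at 0.01. Epcam, at 0.948 to 2.70 TPM, is the highest of the 10 and lies below Cdh1 and far below Vim, and Cdx2 has no read in any library.

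Vanoxerine tumours held more Epcam and Krt19 RNA and less Cldn4 RNA than saline tumours. By edgeR's quasi-likelihood test at a Benjamini-Hochberg adjusted p under 0.05, 2 of the 8 tested genes rose and 1 fell. Of all genes tested, 21.0% rose, 15.9% fell and 36.9% moved either way, so the 3 calls among 8 genes are close to the share of the whole transcriptome. In CPM, both vanoxerine libraries lay above both saline libraries for 5 genes (Epcam, Krt7, Krt18, Krt19 and Cldn3), and 35.8% of tested genes did so. Both lay below for 2 genes (Cldn4 and Esrp1), and 34.9% of tested genes did so. In TPM, 5 genes were above (Epcam, Krt8, Krt18, Krt19 and Cldn3) against 47.7% of tested genes, and 2 were below (Cldn4 and Esrp1) against 19.7%. In whole-tumour RNA, fewer cells of a type and less RNA per cell cannot be told apart.

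**Figure D2:**
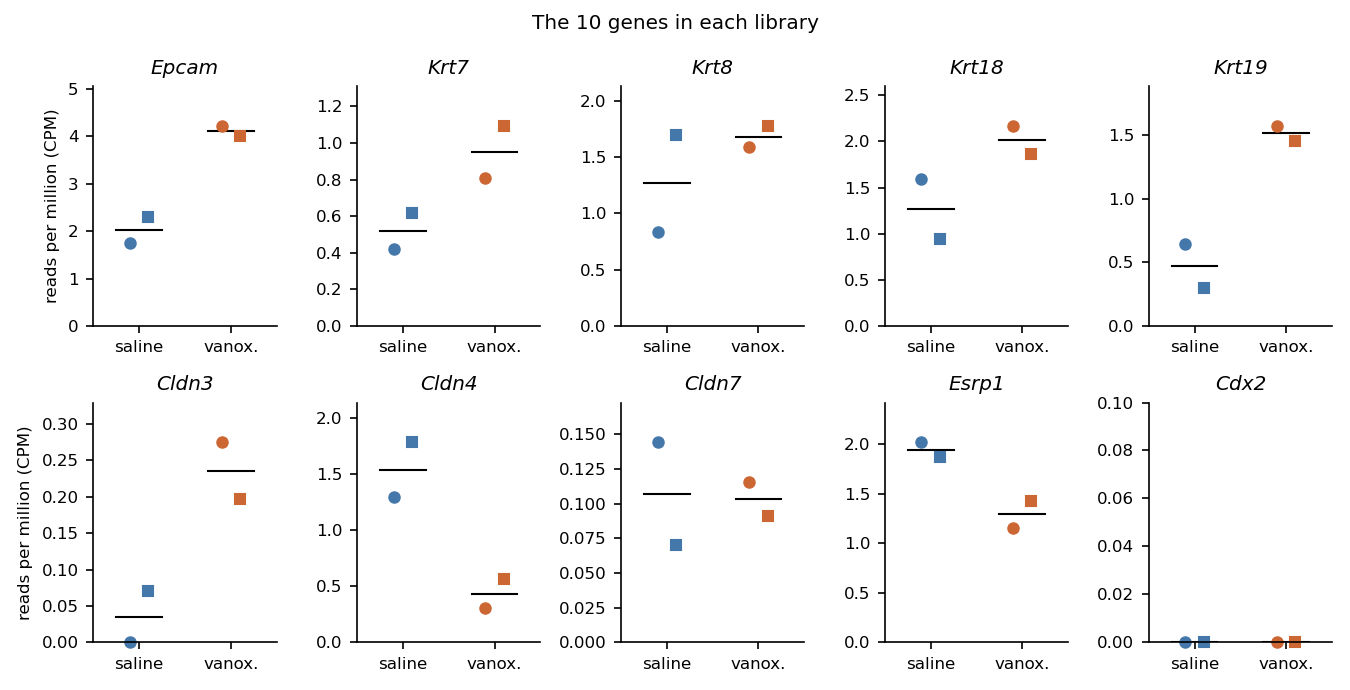
CPM of each gene in the 4 libraries, with circles for library 1, squares for library 2, a line at the group mean and a separate linear axis for each gene. Epcam rose from 1.75 and 2.29 to 4.22 and 4.01 CPM, Krt19 rose from 0.641 and 0.295 to 1.57 and 1.46 CPM, and Cldn4 fell from 1.30 and 1.78 to 0.303 and 0.562 CPM.

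Epcam (ENSMUSG00000045394; chromosome 17, 87635979 to 87651129, forward strand, GRCm38) encodes the adhesion molecule that gives the set its best-known marker. It had 134 and 163 reads in saline and 292 and 264 in vanoxerine, or 1.75, 2.29, 4.22 and 4.01 CPM. Both vanoxerine libraries stood well above both saline libraries. Group means were 2.02 ± 0.378 and 4.11 ± 0.149 CPM (SD, n = 2). The rise was 2.04-fold, or 1.03 ± 0.23 (SE) on the log2 scale, with a Benjamini-Hochberg adjusted p of 0.0174 in edgeR. The exact 95% Poisson intervals of the reads, which cover counting error only, reached 190 at most in saline and began at 233.1 in vanoxerine. All reads were assigned to 1 of the 5 annotated transcripts, Epcam-204 of 1745 bases, so the TPM values followed the counts (0.948, 1.22, 2.70 and 2.55 TPM).

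Among the type I keratins, Krt19, an acidic keratin of gut and ductal epithelium (chromosome 11, 100140810 to 100148665, reverse strand), changed most. It had 49 and 21 reads in saline and 109 and 96 in vanoxerine, and all were in Krt19-201. The saline libraries differed from each other by more than counting error, with 95% intervals of 36.3 to 64.8 and 13.0 to 32.1 reads, yet both lay below the vanoxerine libraries. The mean rose 3.22-fold, from 0.468 ± 0.245 to 1.52 ± 0.0828 CPM, which is 1.69 ± 0.48 (SE) on the log2 scale, with an edgeR adjusted p of 0.0379. Krt18 (chromosome 15, 102028180 to 102032027, forward strand) had 122 and 67 reads in saline and 150 and 123 in vanoxerine. The higher saline library nearly reached the lower vanoxerine library in reads, and in CPM (1.60, 0.940, 2.17 and 1.87) the groups did not overlap. The difference was 0.67 ± 0.36 (SE) on the log2 scale and did not pass the test (edgeR adjusted p = 0.200).

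Krt8, the type II partner with which Krt18 forms filaments, lies on the same chromosome (15, 101996698 to 102004482, reverse strand), 23697 bases from Krt18. It had 64 and 121 reads in saline and 110 and 117 in vanoxerine, which is 0.838, 1.70, 1.59 and 1.78 CPM. The second saline library was as high as the vanoxerine libraries, and the groups overlapped. The log2 difference of 0.41 ± 0.41 (SE) did not pass the test (edgeR adjusted p = 0.492). The partners varied in opposite directions between the saline libraries: Krt18 had 1.91 times the reads of Krt8 in saline 1 and 0.554 times in saline 2. Their sum was steady within groups, at 186 and 188 reads in saline and 260 and 240 in vanoxerine. In saline 1 the 95% interval of Krt8 was 49.3 to 81.7 reads and that of Krt18 was 101.3 to 145.7. In saline 2 they were 100.4 to 144.6 and 51.9 to 85.1 reads.

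Krt7 (chromosome 15, 101411043 to 101430313, forward strand), a type II keratin of ducts and glands, had 32 and 44 reads in saline and 56 and 72 in vanoxerine. The vanoxerine libraries were higher in CPM (0.809 and 1.09 against 0.419 and 0.618), with a log2 difference of 0.87 ± 0.46 (SE) that did not pass the test (edgeR adjusted p = 0.195). In TPM the groups overlapped, at 0.314 and 0.135 in saline and 0.194 and 1.38 in vanoxerine. The transcript that led Krt7's TPM was not the same in all libraries of a group. The short Krt7-204 (642 bases) took 78.2% of Krt7's TPM in saline 1 and 90.7% in vanoxerine 2, the retained-intron transcript Krt7-202 (3563 bases) took 82.2% in saline 2, and Krt7-201 (4094 bases) took 100% in vanoxerine 1. Salmon divides reads among transcripts by estimate, and with 32 to 72 reads these shares are uncertain. An antisense gene whose exons overlap those of Krt7 by 77 bases, Gm671, had 3 reads, all in vanoxerine 2. The pseudogene Krt8-ps and the other overlapping genes, Gm36026 at Krt8 and Wbscr25 at Cldn3, had no reads.

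The claudins did not move as a group. Cldn4 (chromosome 5, 134945119 to 134946934, reverse strand), a sealing claudin with a single annotated transcript, had 99 and 127 reads in saline and 21 and 37 in vanoxerine. Both vanoxerine libraries were far below both saline libraries. The mean was 1.54 ± 0.344 CPM in saline and 0.432 ± 0.183 CPM in vanoxerine, a log2 fold change of -1.83 ± 0.46 (SE) or 3.55-fold lower, with an edgeR adjusted p of 0.0258. Cldn3, its neighbour 39279 bases away (chromosome 5, 134986214 to 134987472, forward strand), went the other way in its few reads, with 0 and 5 in saline and 19 and 13 in vanoxerine. Only its vanoxerine counts carried it past the low-count filter, and its log2 estimate of 2.71 ± 1.39 (SE) did not pass the test (edgeR adjusted p = 0.185). Without saline 2 it was called at 7.07 (edgeR adjusted p = 0.0254), a fitted value that depends on the prior count, since saline 1 had no read. Cldn7, the partner of Epcam (chromosome 11, 69964779 to 69967885, forward strand), had 11 and 5 reads in saline and 8 and 6 in vanoxerine and was not tested. Its TPM of 0.870 in vanoxerine 1, against 0.073 to 0.126 elsewhere, came from 8 reads assigned wholly to Cldn7-205, a transcript of 373 bases.

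Esrp1 (chromosome 4, 11331933 to 11386783, reverse strand) had 154 and 133 reads in saline and 80 and 94 in vanoxerine. Both vanoxerine libraries were lower (2.02, 1.87, 1.16 and 1.43 CPM), and the log2 difference of -0.59 ± 0.29 (SE) did not pass the test (edgeR adjusted p = 0.170). Reads were divided among 4 of its 7 annotated transcripts, with Esrp1-204 taking 91.1% and 46.7% of TPM in saline and 100% and 61.0% in vanoxerine, so no transcript share separated the groups. Of 4 genes whose splicing Esrp proteins are known to regulate, 2 rose and 1 fell at the gene level. Of all tested genes, 21.0% rose and 15.9% fell. The hyaluronan receptor gene Cd44 rose from 325 ± 5.89 to 533 ± 1.78 CPM and the p120 catenin gene Ctnnd1 rose 1.33-fold, while the actin regulator gene Enah fell from 9.80 ± 1.76 to 6.55 ± 0.335 CPM. The longest form, Cd44-201 with 19 exons, held 1.38% and 0.996% of Cd44's TPM in saline and 0.914% and 1.11% in vanoxerine. Cd44-207, with 14 exons, held 59.4% and 50.2% in saline and 60.0% and 54.9% in vanoxerine. The 9-exon Cd44-203 held 36.2% and 46.3% against 36.9% and 41.9%. The shares overlapped between groups for each of these forms. Ctnnd1 lost its call with an average transcript length offset, where its log2 fold change was 0.055 (edgeR adjusted p = 0.891), and on the log2(TPM + 1) and log2(TPM + 0.1) scales (limma adjusted p = 0.413 and 0.405). Enah lost its call with the length offset, at -1.10 (edgeR adjusted p = 0.148), and on both TPM scales (limma adjusted p = 0.343 and 0.338). It also lost it without saline 2 (edgeR adjusted p = 0.0715) and without vanoxerine 1 or 2 (0.137 and 0.202).

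Summed over the 10 genes, the level was 8.70 and 9.63 CPM in saline and 12.2 and 12.5 CPM in vanoxerine. The difference between group means was 3.18 CPM, with an exact two-sided permutation p of 0.333, the smallest that 2 against 2 libraries can give. In TPM the 4 keratins summed to 2.07 and 1.60 in saline and 3.68 and 4.63 in vanoxerine, where both libraries were higher. The claudins summed to 0.725 and 0.999 TPM in saline and 1.26 and 0.542 TPM in vanoxerine and overlapped. That overlap rested on Cldn7, which gave 0.870 TPM of the vanoxerine 1 sum from 8 reads assigned to a short transcript. Krt7 gave 1.38 TPM of the keratin sum in vanoxerine 2, most of it assigned to the short Krt7-204.

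Genes of the same epithelial programme were also counted, in 6 lists of 71 genes. In these, 45 genes were tested, 6 rose, 3 fell and 36 did not pass, with a median log2 fold change of 0.16 against -0.0096 for all tested genes. Both shares called were smaller than those of all tested genes (21.0% higher and 15.9% lower). In junctions, Cdh1, which encodes E-cadherin, rose from 11.3 and 13.5 to 25.4 and 27.6 CPM, by 1.09 ± 0.11 (SE) on the log2 scale (edgeR adjusted p = 9.92e-04). That is similar in size to Epcam's. The desmosome and adherens genes Pkp3 (0.39 ± 0.087) and Jup (0.33 ± 0.10) rose by less on the log2 scale. In that list 3 of 8 genes rose and none fell, where 21.0% of all tested genes rose. At an unadjusted edgeR p under 0.05, 3 genes of the list were higher and 1 was lower. Jup was called in 9 of 17 alternative settings and lost its call with upper-quartile factors (0.20, edgeR adjusted p = 0.186), library totals (0.0727) and the replicate block (0.0544). Of 11 tested tight junction genes besides the 3 claudins above, 1 rose and none fell: Marveld2, which encodes tricellulin, by 1.19 ± 0.19. The most abundant of these genes, Cldn12 and the scaffold gene Tjp1, differed by -0.18 ± 0.079 and -0.0013 ± 0.069 and did not pass the test (edgeR adjusted p = 0.125 and 0.991). Cldn12 was higher in vanoxerine in TPM, at 0.28 on the log2(TPM + 1) scale (limma adjusted p = 0.0402).

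The regulators of epithelial state split in direction. Rbm47, an RNA-binding protein gene, rose from 7.85 and 7.92 to 28.2 and 25.9 CPM (log2 fold change 1.78 ± 0.092, edgeR adjusted p = 7.81e-05). The transcription factor genes Ovol2 and Elf3 fell by 0.98 ± 0.12 and 0.88 ± 0.18 on the log2 scale, and Grhl3 had no read. Of 9 tested epithelial surface genes, Lsr, a receptor gene of tricellular junctions, rose by 0.75 ± 0.19, and the protease inhibitor genes Spint1 and Spint2 did not pass the test. Among 12 other keratins, Krt5, Krt13 and Krt23 had no read. Krt10, a keratin of stratified epidermis, fell by 1.12 ± 0.34 on the log2 scale, from 1.58 and 1.42 to 0.664 and 0.713 CPM. It was called in 8 of 17 alternative settings, and not with DESeq2 (adjusted p = 0.0536), the replicate block (edgeR adjusted p = 0.0831) or no low-count filter (0.0882). Krt80, at 18.1 and 19.8 CPM in saline and 23.0 and 21.9 in vanoxerine, had more reads in every library than Krt8 or Krt18 and did not pass the test (edgeR adjusted p = 0.0753). Cdh1 and Rbm47 were called in all 17 alternative settings. Marveld2, Pkp3, Jup, Elf3, Lsr and Krt10 were not called when vanoxerine 1 or vanoxerine 2 was left out. Ovol2, Elf3 and Pkp3 lost their calls with log2(TPM + 1) (limma adjusted p = 0.0786, 0.0831 and 0.0730) and log2(TPM + 0.1) (0.0736, 0.101 and 0.0710). Pkp3 was called in 11 of 17 settings, and not with upper-quartile factors (edgeR adjusted p = 0.0587) or the average transcript length offset (0.254).

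Gut identity genes other than Cdx2 gave no call. Of 17 genes, 4 (Hnf4g, Isx, Fabp1 and Car1) had no read and 6 were tested. No gene was called by edgeR, DESeq2 or limma-voom, and 1 was lower and 0 were higher at an unadjusted edgeR p under 0.05. The most abundant were the intestinal cadherin gene Cdh17, at 7.84 and 8.03 CPM in saline and 8.98 and 10.3 in vanoxerine, and the galectin gene Lgals4, at 3.15 and 3.71 against 4.56 and 4.31. Both vanoxerine libraries were higher for these genes, but the differences did not pass (edgeR adjusted p = 0.141 and 0.181).

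**Figure D3:**
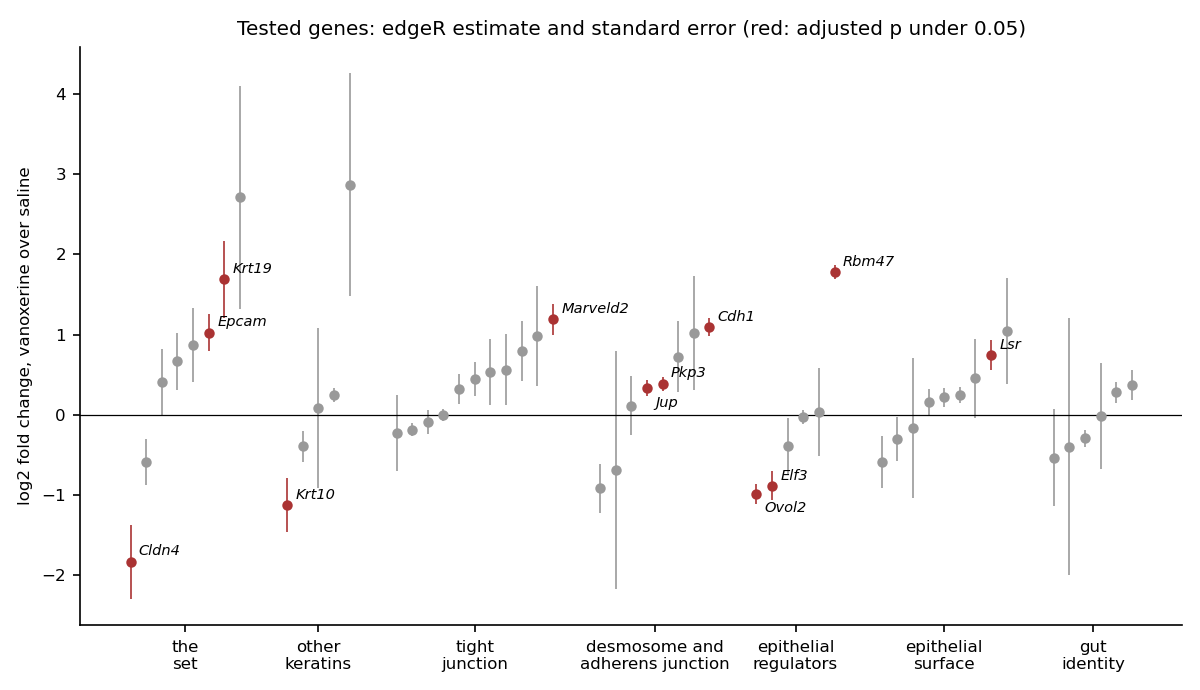
Log2 fold change of vanoxerine over saline with its SE from edgeR, for the 8 tested genes of the set and the 45 tested genes of the 6 epithelial lists, sorted within each list. Called genes are red and named: Epcam, Krt19 and Cldn4 at 1.03, 1.69 and -1.83, and Rbm47 highest among the called genes of the lists at 1.78.

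Genes of the mesenchymal state, among them repressors of epithelial genes, did not share a direction. Of 7 tested, 2 rose and 3 fell, where 21.0% of all tested genes rose and 15.9% fell. Vim rose 1.36-fold and Zeb2, a repressor of epithelial genes, rose from 69.5 ± 2.85 to 162 ± 4.43 CPM. The repressor genes Snai1 (31.6 ± 1.29 to 14.1 ± 0.253 CPM) and Twist1 (17.0 ± 2.38 to 11.6 ± 0.357 CPM) fell. Twist1 was not called without vanoxerine 1 (edgeR adjusted p = 0.0930) or vanoxerine 2 (0.129).

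Markers of other cells moved with the treatment as well, where 21.0% of all tested genes rose and 15.9% fell. All 6 macrophage markers rose, with a summed level of 393 and 411 CPM in saline and 3053 and 3091 in vanoxerine. All 5 fibroblast markers fell (421 and 420 to 214 and 215 CPM), 4 of 5 endothelial markers fell (81.2 and 78.2 to 38.8 and 41.4 CPM), and of 5 skeletal muscle markers 1 rose and 2 fell (46.8 and 43.7 to 32.9 and 30.4 CPM). Among cells that can carry keratins themselves, the 6 mesothelial markers summed to 128 and 137 CPM in saline and 121 and 116 in vanoxerine. Nearly all of this was Msln, Gpm6a had no read, and Upk3b had 4 to 6 reads per library. None of the 3 mesothelial genes tested was called by edgeR, DESeq2 or limma-voom, and 2 were lower at an unadjusted edgeR p under 0.05. The 6 skin keratinocyte markers summed to 18.3 and 20.3 CPM in saline and 13.2 and 12.1 in vanoxerine. Nearly all of this was Sbsn, at 17.1 and 19.5 CPM in saline and 12.3 and 11.2 in vanoxerine. Lor had no read, Sbsn fell, and Flg had no read in saline and 21 reads in each vanoxerine library. Only its vanoxerine counts carried Flg past the low-count filter. Its fitted fold change depends on the prior count, since saline had no read. Sbsn was not called without vanoxerine 2 (edgeR adjusted p = 0.0747), and neither was Flg without vanoxerine 1 or 2 (0.212 and 0.223). The part of all these cells in the levels of Epcam, Krt19 and Cldn4, and in those of Vim, Zeb2, Snai1 and Twist1, was not tested.

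Among 11881 protein-coding genes whose log2 CPM averaged 1 or more, the profile of Epcam over the 4 libraries was most like those of Fam174a, Klra1 and Plcb2. The root mean square differences of centred log2 CPM were 0.013, 0.028 and 0.029. Krt19 was most like Pkib (0.061), Gm6377 (0.083) and Cysltr1 (0.13), which share its lower value in saline 2. Cldn4 was most like Gpihbp1, Cyp11a1 and Tie1, at 0.22, 0.22 and 0.23. These matches describe 4 libraries only.

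The promoters of Epcam, which rose, and Cldn4, which fell, are shown because the genes changed in opposite directions. The 250 bases before the start in RefSeq (GRCm38.p6), at chr17:87635729-87635978 (forward strand) for Epcam and chr5:134946935-134947184 (reverse strand) for Cldn4, read 5′ to 3′ as follows. Capitals mark CACCTG, an E-box bound by Zeb and Snail repressors, or GGGCGG, the SP1 box, on either strand, and the last SP1 box of Cldn4 is cut by the start.
Epcam: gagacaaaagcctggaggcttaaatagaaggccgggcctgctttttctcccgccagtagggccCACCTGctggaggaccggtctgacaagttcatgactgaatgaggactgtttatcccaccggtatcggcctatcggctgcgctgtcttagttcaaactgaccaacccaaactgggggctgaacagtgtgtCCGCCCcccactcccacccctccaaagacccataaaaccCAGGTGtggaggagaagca
Cldn4: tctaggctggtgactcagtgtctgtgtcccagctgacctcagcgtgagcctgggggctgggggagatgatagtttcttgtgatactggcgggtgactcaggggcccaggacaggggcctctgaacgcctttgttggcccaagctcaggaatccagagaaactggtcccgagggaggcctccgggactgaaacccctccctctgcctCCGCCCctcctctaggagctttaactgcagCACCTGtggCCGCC
Epcam held E-boxes whose first base lay at -187 and -19 and an SP1 box at -58 from the start. Cldn4 held an E-box at -14 and SP1 boxes at -44 and -5, so both kinds of motif occurred before the start of a gene that rose and of a gene that fell. Windows were found for 8 of the 10 genes, and Krt19 and Esrp1 matched no entry. In windows of 300 bases that include 50 bases after the start, CACCTG was present in 7 of the 8 genes (not in Cdx2) and in 20.2% of all 32851 windows. It was present in 6 genes and 17.2% of windows before the start alone. GGGCGG was present in 5 of the 8 genes and 35.7% of windows, and the Grhl motif AACCNGTT in 0 genes and 2.09% of windows. The windows of the 8 genes held 52% to 66.3% G and C, against a median of 52.7% for all windows. The part of G and C content in these shares was not tested. Cldn7 had more than a single window and counted where any held the motif. These motif hits are matches of letters and not measured binding.

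The authors' deposited table lists 9 of the 10 genes, without Cdx2, and gives no adjusted p for Cldn3 and Cldn7. It calls the same 3 genes at an adjusted p under 0.05, where 35.2% of its genes with an adjusted p were called. In the authors' deposited table the log2 fold change was 0.85 for Epcam (adjusted p = 0.0127), 1.04 for Krt19 (0.0380) and -1.23 for Cldn4 (0.0214). Each was smaller in size than the edgeR value, while DESeq2 on the counts here gave 1.02, 1.69 and -1.84. The error of the deposited Cldn4 value, 0.80, is large beside its adjusted p. The deposited fold changes may therefore be shrunk toward 0 and not comparable in size with those of edgeR. The other genes lay between -0.31 for Esrp1 and 0.32 for Krt18 in the authors' deposited table. Cldn3 was at 0.11 there, against 2.71 in edgeR.

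The calls changed when single libraries were left out. Over 17 alternative settings Epcam kept its direction (log2 0.80 to 1.24) and was called in 15. Krt19 was tested in 16, with 0.67 to 2.35, and called in 13. Cldn4 was tested in 16, with -2.32 to -0.47, and called in 12. Without vanoxerine 1 the edgeR adjusted p was 0.125 for Epcam, 0.186 for Krt19 and 0.160 for Cldn4. Without vanoxerine 2 it was 0.101, 0.157 and 0.0572. The log2 fold changes in these fits were 1.00 and 1.07 for Epcam, 1.65 and 1.76 for Krt19, and -1.44 and -2.32 for Cldn4, and the genes called over the whole transcriptome went from 6916 to 3235 and 3107. Without saline 1, Krt18 was called at 1.10 (edgeR adjusted p = 0.00928) and the estimate of Krt8 was -0.014. Without saline 2, Krt8 was called at 1.02 (edgeR adjusted p = 0.0214), so which keratin of the pair was called changed with the saline library kept.

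**Figure D4:**
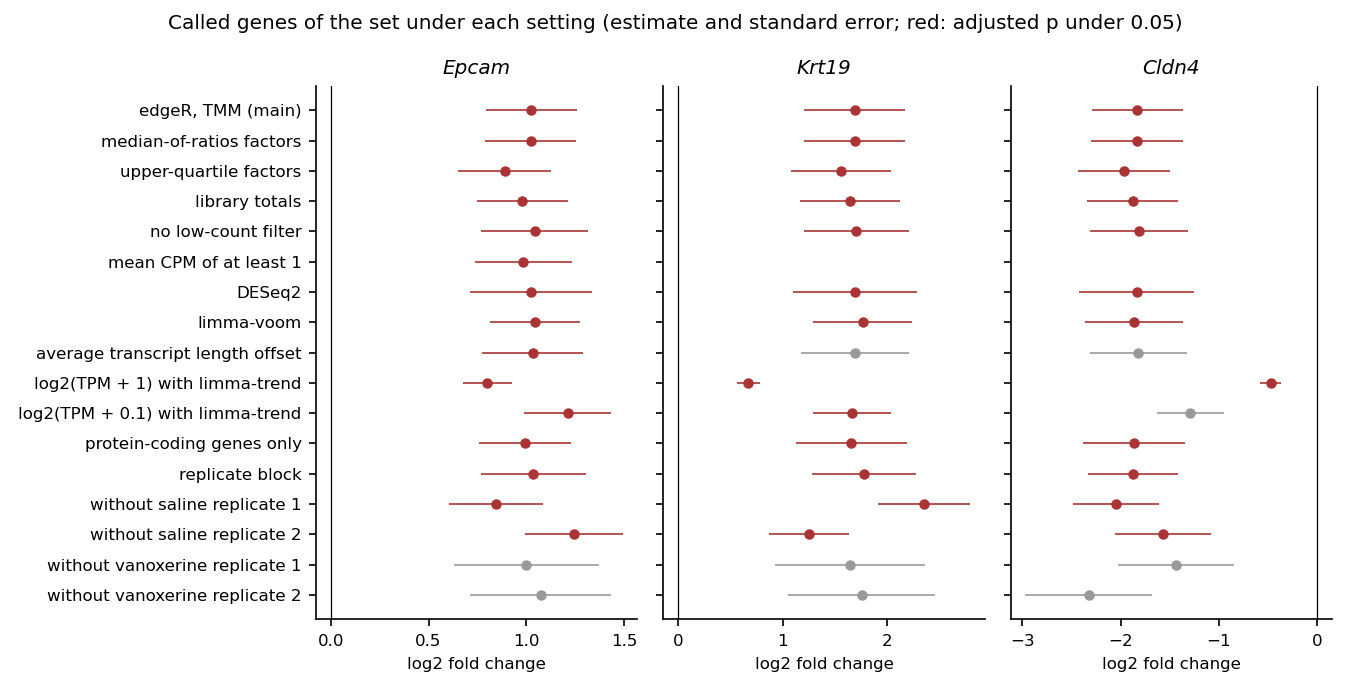
Log2 fold change (x axis) of Epcam, Krt19 and Cldn4 with its SE under each setting (y axis), in red where the gene passed an adjusted p of 0.05 and in grey where it did not. Epcam and Krt19 stay above 0 and Cldn4 below 0 in every setting that tested them, and without either vanoxerine library none of the 3 is red.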

How the data were processed

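Total RNA was made into TruSeq RNA v2 libraries, per the labels' protocols. The submitters' processing notes list fastp, Salmon 1.3.0, DESeq2 and build GRCm38. No source used here gives the read length, annotation release or strand setting, so reads of a gene and its antisense partner cannot be told apart. For each of 140992 transcripts and each library, the authors deposited an estimated count (reads, not normalized), a TPM and an effective length from Salmon. The authors' deposited table holds a base mean (a signal averaged over libraries), a log2 fold change with its error, and a p-value with its adjusted value. Another 4 columns in it, of FPKM, match no sample by name and were not used.

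Transcripts were matched to genes in GENCODE M21 (139791 transcripts, 99.56% to 99.63% of reads). Estimated counts were summed per gene, rounded and tested with edgeR 4.0.16 (R 4.3.3): TMM factors, the low-count filter (minimum count 10, total 15), the quasi-likelihood test without a block, and Benjamini-Hochberg adjustment over 18758 genes at 0.05. The SE came from the F statistic. The fit was tested on simulated data. Alternatives used limma 3.58.1, DESeq2 1.42.0, other scalings, filters and scales, and left out each library in turn, where the lone library of a group takes its spread from the other group.

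The 10 genes and the 14 lists (115 genes) were chosen with earlier results of these data known. The text names all 10 genes, up to 4 called genes per list by smallest p (and the 2 most abundant where fewer than 2 were called), and the 3 genes most like each called gene. Genes without a read, Upk3b and the comparison genes in the plot of TPM levels were chosen after their values were seen. A gene of the tight junction list is not reported here and is left out of the counts. Protein sequences were not analysed here.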

Additional observations from a re-analysis of the deposited data

How the results depend on the processing

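Of 17 alternatives, the count of genes called (6916) changed by over 1.5 times with an average transcript length offset (4302) and without either vanoxerine library, and ranged from 3107 to 9708 when 1 library was left out. Of the 10 genes, 2 were called higher and 1 lower. With a mean CPM of at least 1, which leaves out Krt19 and Cldn4, these counts were 1 and 0. With the length offset they were also 1 and 0, with edgeR adjusted p of 0.0807 for Krt19 and 0.0589 for Cldn4. With log2(TPM + 0.1), 0 were called lower (Cldn4 -1.29, limma adjusted p = 0.0647). Leaving out 1 library gave 0 to 4 called higher and 0 to 1 lower. The cause of these changes was not tested. Krt8 ranged from -0.014 (without saline 1) to 1.02 on the log2 scale when 1 library was left out. Spint1 reversed to -0.067 with the length offset, and Msln to 0.0997 with the length offset, 0.36 with log2(TPM + 1) and 0.36 with log2(TPM + 0.1). Cldn12 reversed to 0.055, 0.28 and 0.29 under the same 3 settings. Tjp1, near 0, reversed to 0.016 without the low-count filter, 0.17 and 0.18 with the TPM scales, and ranged from -0.066 to 0.084 when 1 library was left out. The same-numbered libraries did not deviate together (r = -0.039 over 9871 genes), so the numbers were not taken as pairs. With the replicate block 6391 genes were called, and 2 of the 10 genes were higher and 1 lower, as without it. Krt10, Jup, the endothelial marker Tek and the muscle marker Myh4 lost their calls under it. The summed CPM was higher in vanoxerine in each of its alternatives. Cldn3 and Cldn7 had between 0 and 19 reads per library, which limits the precision of their values.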
